A study of Rattus norvegicus with 16 samples.

Results

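The 36 genes described here encode the machinery that takes up fatty acids, carries them into mitochondria and oxidises them, together with known targets and regulators of the PPAR receptors. They were taken by gene symbol from a list whose rule names no measured value but which was drawn up with earlier results of these data known, and each symbol was found once in the adrenal gland, heart and pancreas tables, which hold 45777 symbols each. RNA sequencing was done on organs of wild-type male Sprague-Dawley rats given vehicle or benzalkonium chloride (BKC, a cationic disinfectant and preservative) into the trachea at 50 or 100 µg per rat. Instillations began at 7 weeks of age and were repeated 10 times at intervals of 3 days, and organs were collected on day 31, 24 h after the last of them. The groups had 2 libraries each: vehicle, 50 µg (BKC50) and 100 µg (BKC100) for adrenal gland and heart, and vehicle and BKC100 for pancreas. The adrenal glands of a rat were pooled, and the heart tissue was labelled as left ventricle. The labels do not tie the libraries to named animals beyond their library names, so p-values measure the spread between these libraries.

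Long-chain fatty acids released from lipoproteins enter cells with the help of carriers, are activated to acyl-CoA, cross the inner mitochondrial membrane as carnitine esters and are shortened step by step by beta-oxidation, which feeds electrons to the respiratory chain. PPAR alpha and PPAR delta are nuclear receptors that bind fatty acids and, with their partner RXR, raise transcription of many genes of this pathway, and PGC-1 alpha is a coactivator of both. The working heart draws most of its energy from fatty acids, the adrenal cortex stores cholesteryl esters in lipid droplets, and the pancreas is mostly acinar tissue that makes digestive enzymes.

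Promoter windows are shown for 4 members that were higher in the second of the 2 library naming styles among the vehicle and BKC50 hearts. RefSeq windows of the GRCr8 build, from 250 bases before to 50 bases after the gene start, were matched for 30 of the 36 symbols. The windows lie at chr4:34568280-34568579 (minus strand) for Pdk4, chr7:15258632-15258931 (minus strand) for Angptl4, chr1:164227660-164227959 (plus strand) for Ucp3 and chr4:18246332-18246631 (plus strand) for Cd36. Each is written 5′ to 3′ on the gene's strand, and capitals mark matches, on either strand, to the PPAR half-site AGGTCA, the TATA box TATAAA, the GC box GGGCGG and the CCAAT box CCAAT.
Pdk4: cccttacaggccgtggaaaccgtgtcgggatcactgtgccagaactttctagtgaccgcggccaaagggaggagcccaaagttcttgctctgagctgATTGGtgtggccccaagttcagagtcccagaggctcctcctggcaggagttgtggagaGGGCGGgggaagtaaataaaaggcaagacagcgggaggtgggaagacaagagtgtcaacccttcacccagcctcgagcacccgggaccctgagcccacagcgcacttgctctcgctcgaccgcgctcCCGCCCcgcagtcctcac
Angptl4: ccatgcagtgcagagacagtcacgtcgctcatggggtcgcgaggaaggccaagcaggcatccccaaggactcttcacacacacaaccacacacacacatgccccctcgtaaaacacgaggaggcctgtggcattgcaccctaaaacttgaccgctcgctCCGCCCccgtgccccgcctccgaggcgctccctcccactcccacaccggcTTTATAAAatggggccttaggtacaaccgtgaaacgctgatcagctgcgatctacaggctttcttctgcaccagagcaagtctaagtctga
Ucp3: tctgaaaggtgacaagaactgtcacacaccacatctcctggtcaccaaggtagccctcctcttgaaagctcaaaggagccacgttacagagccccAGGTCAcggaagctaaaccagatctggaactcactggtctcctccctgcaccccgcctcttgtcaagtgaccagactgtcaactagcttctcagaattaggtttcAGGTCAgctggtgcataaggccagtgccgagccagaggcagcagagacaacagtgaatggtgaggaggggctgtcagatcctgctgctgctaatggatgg
Cd36: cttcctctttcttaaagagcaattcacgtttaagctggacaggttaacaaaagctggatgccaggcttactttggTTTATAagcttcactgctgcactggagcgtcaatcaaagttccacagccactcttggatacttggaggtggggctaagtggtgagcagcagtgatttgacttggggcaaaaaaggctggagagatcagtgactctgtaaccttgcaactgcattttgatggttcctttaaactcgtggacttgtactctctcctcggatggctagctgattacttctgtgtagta
The Ucp3 window holds the half-site at 155 and at 50 bases before the start, and the Angptl4 window holds TATAAA on both strands in overlapping letters about 40 bases before it. The half-site was found in 6 of the 30 member symbols with a window (20.0%) and in 16.2% of all 33469 windows. The direct repeat AGGTCANAGGTCA, the textbook PPAR and RXR element, which contains the half-site, was in 0 of the 30 and in 0.0538% of all windows. GGGCGG was in 19 (63.3%, against 33.1%), CCAAT in 14 (46.7%, against 37.5%) and TATAAA in 3 (10.0%, against 14.2%). These matches describe the letters of a short window only.

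Several properties of the libraries bear on the values below. The deposited values were read as FPKM, fragments scaled by transcript length and library size, and read depth was unknown. The column labelled heart BKC100 replicate 2 equalled adrenal gland BKC100 replicate 2 in 45777 of 45777 rows, so it was left out, and 15 libraries remained. The other heart BKC100 library went against its left ventricular label: the ventricular markers summed to 56.4 FPKM, against 13918 to 22028 in the other 4 hearts, with Irx4 and Irx3 at 0, and the atrial markers summed to 33471, against 64.5 to 242. Adrenal gland BKC100 replicate 2 had the highest level of 13 of 17 adipocyte markers. Library names in the labels come in 2 styles, a bare letter code and a longer code, whose meaning is not stated. In the heart the first style covers replicate 1 and the second style replicate 2 of both vehicle and BKC50, whereas in the adrenal gland all vehicle and BKC50 libraries had the first style and both BKC100 libraries the second. All pancreas libraries had the second style. In bulk tissue, fewer cells of a type and less RNA per cell cannot be told apart.

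The family was most highly expressed in the heart. In vehicle libraries, 29 of the 36 genes had their highest mean in the heart and 7 in the adrenal gland (Angptl4, Cpt1a, Echs1, Decr1, Acaa1a, Ucp2 and Plin2). Levels of the 36 genes summed to 11456 to 12137 FPKM in the 4 vehicle and BKC50 hearts, 2813 to 3472 in the adrenal gland and 139 to 221 in the pancreas. Against the vehicle adrenal gland, 24 members were higher and 3 lower in the vehicle heart at an adjusted p under 0.05 (limma on log2(FPKM + 1), Benjamini-Hochberg over all genes tested). Over all 12422 genes, 64% were called, 17.8% higher and 46.2% lower in the heart. Against the vehicle pancreas, 34 members were higher in the heart (89.1% of all genes were called and 86.2% were higher), and 30 were higher in the adrenal gland (92% called, 89.5% higher). The pancreas comparisons follow the scaling: with median-ratio scaling 29 members were higher and 4 lower in heart (29.0% and 29.8% of all genes), and 14 higher and 10 lower in adrenal gland (27.9% and 30.5% of all genes). The sign against pancreas then changed for Acaa1a, Ppard, Cpt1a and Decr1 in heart, and for Acaa1a, Lpl, Acadl, Acsl1, Ppara, Cpt1a, Cd36, Mlycd, Decr1 and Etfb in adrenal gland, so the FPKM order of these genes between those organs is not fixed. Acinar marker transcripts summed to 131750 to 189333 FPKM in the pancreas.

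**Figure D1:**
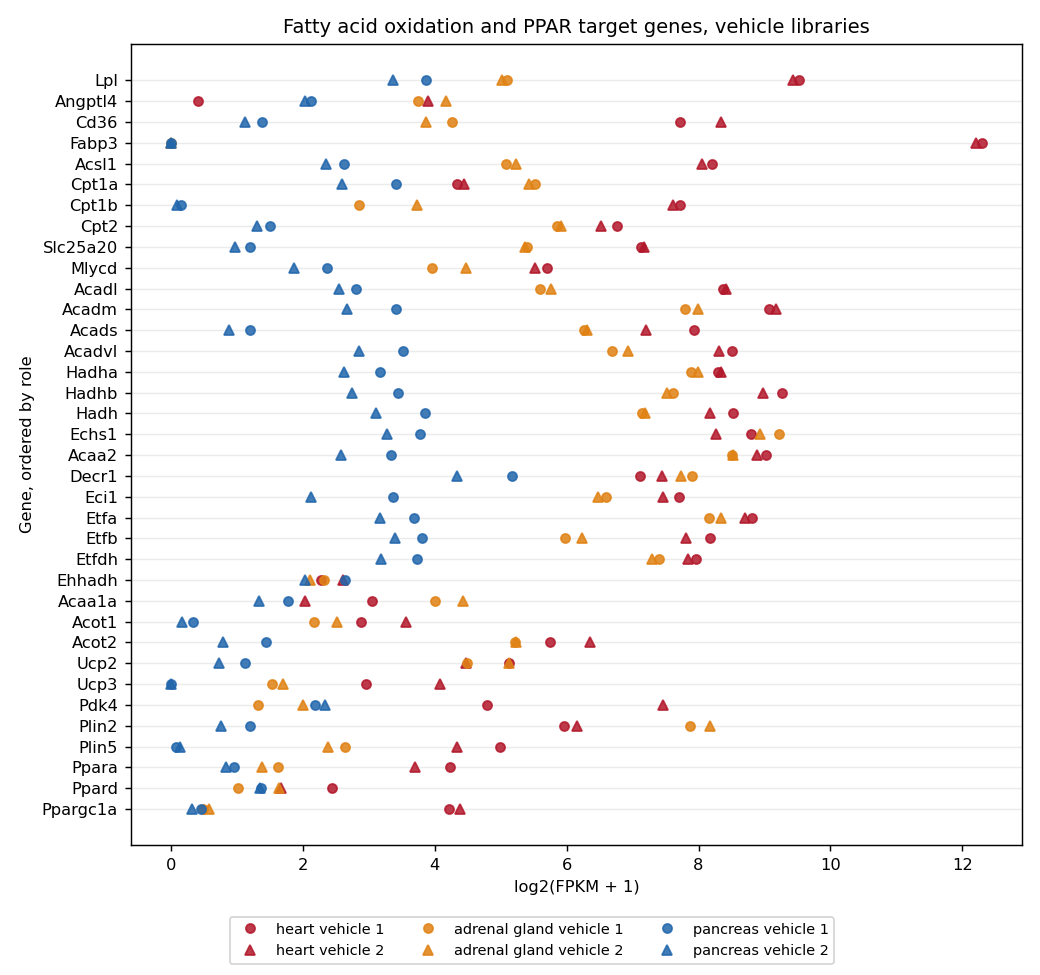
Levels of the 36 genes in the 6 vehicle libraries, as log2(FPKM + 1), ordered by role. Each point is 1 library, colour gives the organ and shape the replicate. Red points lie to the right for most genes, Fabp3 is near 12 in heart and at 0 elsewhere, and Angptl4 splits the 2 hearts.

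Among the genes of fatty acid uptake and activation, Fabp3, which encodes the heart-type fatty acid-binding protein, stood at 5040.2 and 4741 FPKM in the vehicle hearts and was listed at 0 in the vehicle adrenal glands and pancreases. Lpl, the lipoprotein lipase that frees fatty acids from triglyceride, measured 732 and 687 FPKM in heart, 33.3 and 31.3 in adrenal gland and 13.5 and 9.27 in pancreas. Cd36, a fatty acid translocase, measured 209 and 323 in heart, 18.1 and 13.5 in adrenal gland and 1.59 and 1.17 in pancreas. For Lpl and Cd36 the organs did not overlap. Acsl1, the long-chain acyl-CoA synthetase, followed the same order, with 295 and 265, 32.8 and 36.5, and 5.17 and 4.08 FPKM. Angptl4, a secreted inhibitor of lipoprotein lipase, was the exception in this group, since the vehicle hearts stood at 0.323 and 13.9 FPKM, on either side of the pancreases at 3.34 and 3.09 and below or beside the adrenal glands at 12.4 and 17.0.

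The carnitine shuttle used different isoforms of its entry enzyme by organ. Cpt1b, the muscle form of carnitine palmitoyltransferase, measured 211 and 195 FPKM in the vehicle hearts, 6.20 and 12.3 in the adrenal glands and 0.110 and 0.0659 in the pancreases. Cpt1a, the liver form, measured 44.9 and 41.9 FPKM in the adrenal glands, 19.1 and 20.7 in the hearts and 9.59 and 5.05 in the pancreases, and with median-ratio scaling its heart and adrenal levels lay below that of the pancreas. The ratio of Cpt1b to Cpt1a in FPKM, which does not depend on library scaling, was 7.07 to 11.5 in the 5 hearts, 0.102 to 0.294 in the 6 adrenal glands and 0.0115 to 0.0240 in the 4 pancreases. The ranges of the organs did not overlap in any treatment group. The inner-membrane enzyme gene Cpt2 measured 108 and 91.1 in heart, 56.9 and 59.5 in adrenal gland and 1.83 and 1.47 in pancreas, and the carrier gene Slc25a20 measured 139 and 143, 41.1 and 40.2, and 1.29 and 0.958. Mlycd, whose product removes the CPT1 inhibitor malonyl-CoA, measured 50.9 and 44.95, 14.6 and 21.2, and 4.14 and 2.65.

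**Figure D2:**
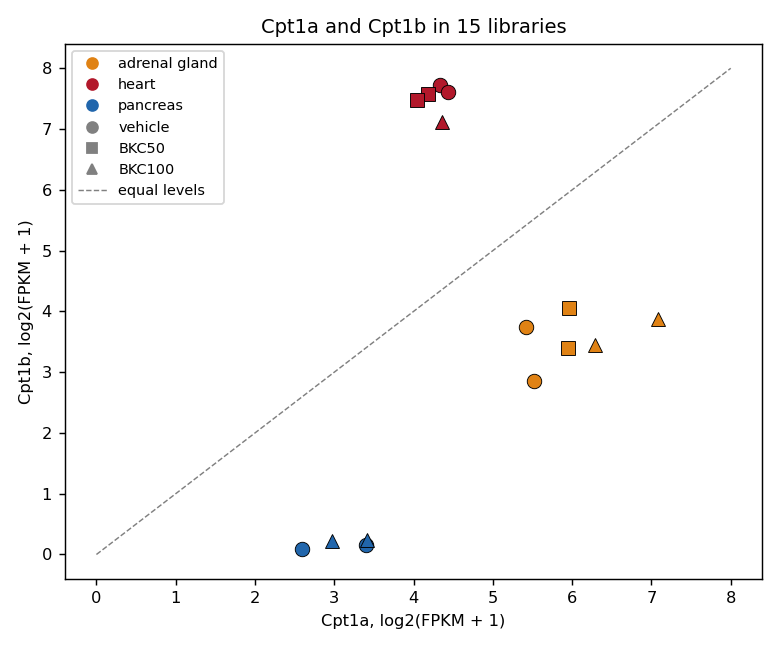
Cpt1b against Cpt1a in the 15 libraries, both as log2(FPKM + 1). Colour gives the organ, shape the treatment, and the dashed line equal levels. All 5 hearts lie above the line, and all adrenal glands and pancreases lie below it.

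The 11 genes of mitochondrial beta-oxidation were strongly expressed in both heart and adrenal gland. The acyl-CoA dehydrogenases, which open the spiral for chains of different length, were 2.35-fold (Acadm), 2.52-fold (Acads), 3.05-fold (Acadvl) and 6.69-fold (Acadl) higher in the vehicle heart mean than in the adrenal mean. Acadm, the medium-chain enzyme, measured 538 and 576 FPKM in heart, 222 and 253 in adrenal gland and 9.63 and 5.36 in pancreas. Acadl, the long-chain enzyme, measured 330.4 and 342, 47.1 and 53.4, and 5.99 and 4.86. The heart and adrenal libraries did not overlap for any of these 4 genes. Hadha, the alpha subunit of the trifunctional protein, measured 314 and 322 FPKM in heart and 234 and 255 in adrenal gland, while Hadhb, its beta subunit, measured 615 and 505 in heart and 194 and 183 in adrenal gland. The Hadhb to Hadha ratio was 1.57 to 1.96 in the hearts, 0.553 to 1.08 in the adrenal glands and 1.10 to 1.23 in the pancreases, although both genes are neighbours on chromosome 6 and their products form a single complex. Echs1, the short-chain enoyl-CoA hydratase, measured 594 and 488 FPKM in adrenal gland and 442 and 308 in heart. Decr1, a dienoyl-CoA reductase for unsaturated chains, measured 238 and 211 in adrenal gland and 138 and 173 in heart. Neither was called between heart and adrenal gland. Vehicle means of Hadh, Acaa2 and Eci1, the hydroxyacyl-CoA dehydrogenase, thiolase and enoyl-CoA isomerase genes, were 328 ± 56.8, 497 ± 33.1 and 192 ± 22.7 FPKM (SD, n = 2) in heart and 142 ± 2.93, 365 ± 1.79 and 91.8 ± 5.12 in adrenal gland.

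Electrons from these dehydrogenases pass through the electron transfer flavoprotein, made of Etfa and Etfb products, to the oxidoreductase encoded by Etfdh. Etfa measured 449.7 and 416 FPKM in the vehicle heart and 285 and 325 in the adrenal gland, and Etfb 287 and 225 against 61.9 and 74.2. The Etfa to Etfb ratio was 1.57 to 1.95 in heart, 3.20 to 4.60 in adrenal gland and 0.808 to 0.913 in pancreas, so the subunit genes of this dimer were also not in a fixed ratio between organs. Etfdh measured 248 and 228 in heart, 168 and 156 in adrenal gland and 12.3 and 8.07 in pancreas. The peroxisomal genes were low throughout. Ehhadh, the peroxisomal bifunctional enzyme, lay between 1.45 and 7.35 FPKM in all 15 libraries, and Acaa1a, the peroxisomal thiolase, was higher in adrenal gland (15.05 and 20.4) than in heart (7.28 and 3.08).

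The lipid droplet coat genes split the organs. Plin2, the widespread coat protein, measured 233 and 287 FPKM in the vehicle adrenal gland, 61.3 and 70.6 in heart and 1.29 and 0.681 in pancreas, 3.94-fold higher in the adrenal than in the heart mean. Plin5, the coat protein of oxidative tissue that joins droplets to mitochondria, measured 30.8 and 19.2 in heart, 5.20 and 4.21 in adrenal gland and 0.0512 and 0.0916 in pancreas. The Plin2 to Plin5 ratio was 1.99 to 5.63 in hearts and 44.8 to 101 in adrenal glands. Among the uncoupling protein genes, Ucp3 was listed at 0 in all 4 pancreases and measured 6.77 and 16.0 FPKM in the vehicle hearts and 1.87 and 2.23 in the adrenal glands, and its neighbour on chromosome 1, Ucp2, measured 33.9 and 21.2, and 21.5 and 34.1, with overlap. The acyl-CoA thioesterase genes Acot1 (cytosolic) and Acot2 (mitochondrial) are near-identical neighbours on chromosome 6 whose reads may be shared. The Acot2 to Acot1 ratio was 6.35 to 8.25 in heart and 6.52 to 10.4 in adrenal gland.

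Of the 3 regulator genes, Ppargc1a and Ppara were low outside the heart. Ppargc1a, encoding PGC-1 alpha, measured 17.5 and 19.8 FPKM in the vehicle hearts and 0.401 and 0.489 in the adrenal glands, 42.0-fold higher in the heart mean. Ppara measured 17.7 and 12.0 in heart, 2.08 and 1.61 in adrenal gland and 0.945 and 0.779 in pancreas. Ppard, the delta receptor gene, measured 4.43 and 2.18, 1.02 and 2.09, and 1.57 and 1.55, and of the 3 regulators it was the lowest in the heart. Its difference between heart and pancreas changed sign under median-ratio scaling.

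In the heart, members differed between the naming styles of the libraries. With dose held as a term in the 4 vehicle and BKC50 hearts, 16 of 36 members were called between styles, 8 higher and 8 lower in the second style, against 35.3% of all 11936 genes (8.63% higher and 26.6% lower). The highest member was Angptl4, which measured 0.323 (vehicle) and 0.108 FPKM (BKC50) under the first style and 13.9 and 13.1 in the second (log2 change 3.58, SE 0.11, adjusted p = 0.00574, limma, n = 2 per style). Pdk4, the kinase that shuts the pyruvate dehydrogenase gate when fat is burned, measured 26.8 and 21.1 FPKM under the first style and 175 and 136 in the second (log2 change 2.65, SE 0.07, adjusted p = 0.00449, limma). Both are widely used as PPAR target genes. Within each dose the style fold of Pdk4 was nearly the same, 6.56 in vehicle and 6.47 in BKC50. Ucp3 measured 6.77 and 4.60 under the first style and 16.0 and 17.8 in the second (log2 change 1.44, SE 0.18). Cd36 measured 209 and 205 against 323 and 343 (log2 change 0.68, SE 0.07). In neither gene did the styles overlap.

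The thioesterase genes were also higher in the second style, Acot1 with 6.38 and 5.52 against 10.9 and 10.8 FPKM (log2 change 0.77) and Acot2 with 52.7 and 44.2 against 80.4 and 68.8 (0.61). Ehhadh (3.83 and 3.51 against 5.12 and 6.20, log2 change 0.51) and Decr1 (138 and 116 against 173 and 170.2, 0.44) completed the 8 genes. Of 5 members in the group of thioesterases, uncoupling proteins and Pdk4, 4 were higher in the second style. The fifth, Ucp2, was lower, with 33.9 and 37.1 FPKM under the first style and 21.2 and 18.1 in the second (log2 change -0.82, SE 0.11). Also lower in the second style were Ppara (17.7 and 19.4 against 12.0 and 13.2 FPKM, log2 change -0.53), Plin5 (30.8 and 29.2 against 19.2 and 16.3, -0.73) and Acads (242 and 239.8 against 146 and 160.0, -0.65). The other 4 lower members were Acaa1a (7.28 and 5.82 against 3.08 and 3.84 FPKM, log2 change -0.76), Echs1 (442 and 451 against 308 and 349, -0.44), Etfb (287 and 298 against 225 and 226, -0.38) and Cpt2 (108 and 111 against 91.1 and 89.4, -0.28). In none of these 4 did the styles overlap, but the sign of Cpt2 changed with protein-coding genes at equal sums or quantile normalization. The PPAR alpha transcript was lower in the libraries in which Angptl4 and Pdk4 were higher. Over the alternative settings the log2 change of Ppara ran from -0.56 to -0.22, and it did not pass in 3 of 8. Acadm and Fabp3 were not called, with Acadm at 538 and 549 against 576 and 575 FPKM and Fabp3 at 5040.2 and 4837 against 4741 and 4674. The median log2 change over members was -0.09 and that over all genes -0.14. Markers of heart muscle differed between the same libraries. Of 6 ventricular markers 5 were lower in the second style (median log2 change -0.83), and they summed to 18554 and 22028 FPKM in the first style and to 13918 and 14402 in the second. Of 8 general cardiomyocyte markers 4 were lower and all 8 had negative log2 changes (median -0.43), with sums of 28201 and 28894 against 19886 and 21857 FPKM. Of 6 atrial markers tested 1 was lower and 0 were higher. Their part in the result was not tested.

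The split between higher and lower members depends on scaling. It was 10 higher and 6 lower with median-ratio scaling (15.2% and 16.3% of all genes) and 15 and 5 with quantile normalization (13.5% and 15.2%). It was 16 and 3 once sums of protein-coding genes were equal (26.6% and 9.15%), which moved the all-gene median from -0.14 to 0.14. Angptl4, Pdk4, Ucp3, Cd36, Acot1, Acot2, Ehhadh and Decr1 remained higher under each of these, and Ucp2, Plin5 and Acads remained lower. The fit has 1 residual degree of freedom, and no library could be left out. Of other genes of the pathway, 62 of a list of 76 were tested, and 9 were higher and 20 lower in the second style. Among those of smallest p were Gpihbp1, which anchors lipoprotein lipase to capillaries (4.52 and 3.74 against 17.5 and 14.7 FPKM, log2 change 1.74), Fabp4 (484 and 550.4 against 999 and 1079.6, 1.01) and the hormone-sensitive lipase gene Lipe (7.64 and 6.15 against 17.2 and 14.99, 1.12). Fabp4 and Lipe are also on the adipocyte list. The 4 defining adipocyte markers Adipoq, Plin1, Cidec and Lep summed to at most 0.245 FPKM in any heart. A part of fat cells in these values was not tested. Of 18 tricarboxylic acid cycle genes, 11 were lower and 0 higher.

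**Figure D3:**
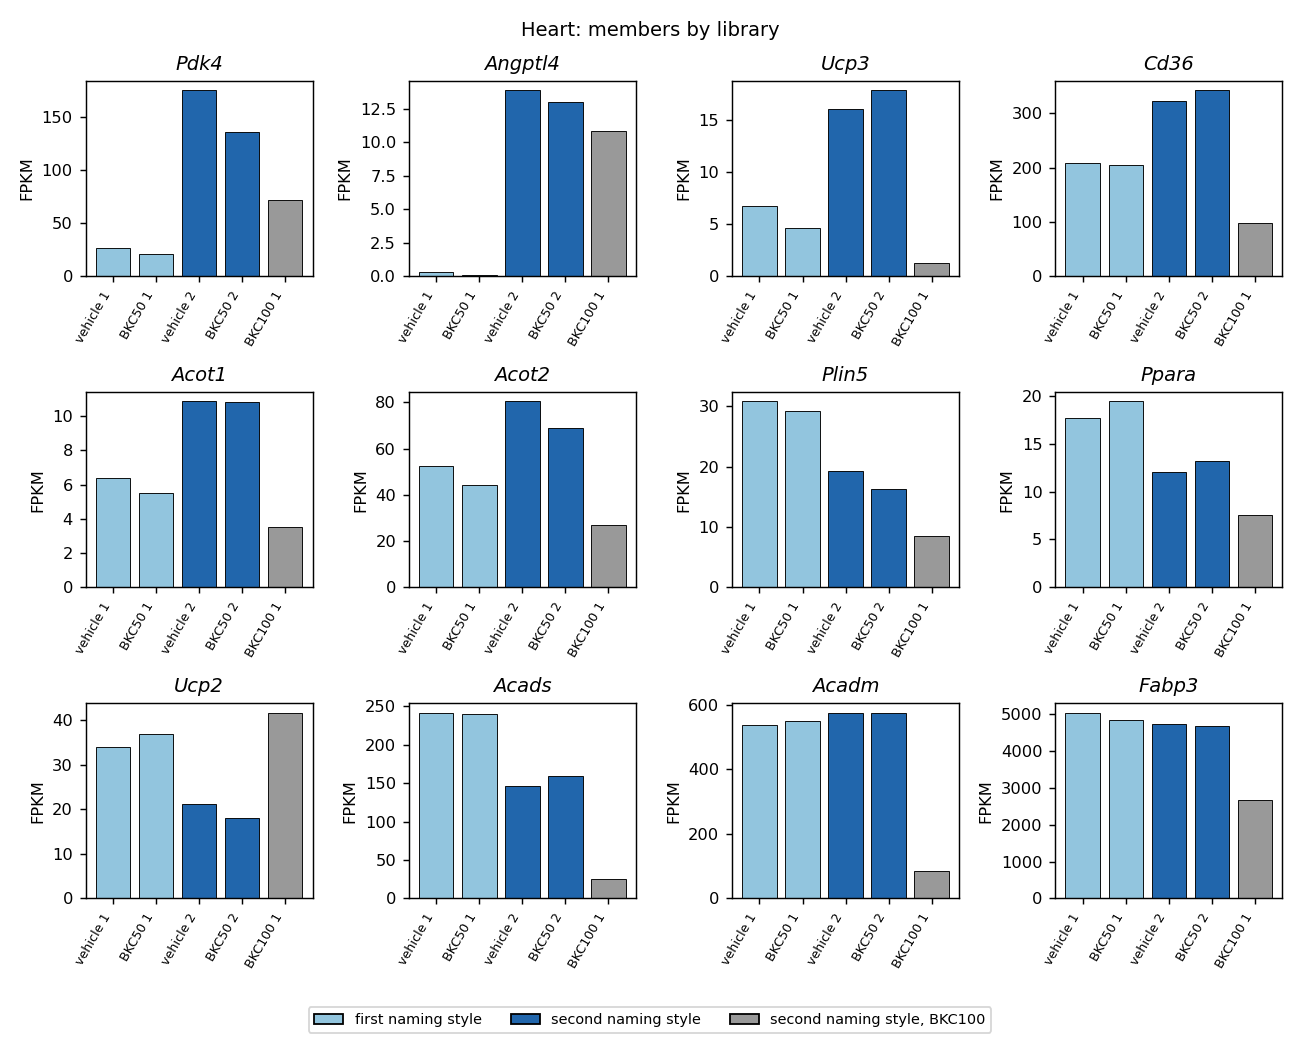
FPKM of 12 members in the 5 heart libraries, 1 bar per library with no error bar, coloured by naming style, with the lone BKC100 library in grey. Pdk4, Angptl4, Ucp3 and Cd36 are high in both dark blue bars and low in both light blue bars, and vehicle and BKC50 bars of the same colour are close.

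At 50 µg, 0 of 36 members were called in the heart, as were 0 of 12099 genes (0% called, limma). An unadjusted p under 0.05 was found for 0 members, against 0.372% of all genes. The log2 changes of members ran from -0.35 (Pdk4, SE 1.27) to 0.12 (Ppara, SE 0.30). Beside the wide error of Pdk4 stands its style difference: the first style had 26.8 FPKM in vehicle and 21.1 in BKC50, and the second had 175 and 136. Cpt1a was the second lowest, with 19.1 and 20.7 FPKM in vehicle and 17.2 and 15.5 in BKC50 (log2 change -0.27, SE 0.17), and its groups did not overlap. Only 3 of 36 members (Cpt1a, Cpt1b and Slc25a20) had groups that did not overlap, all lower (6.59% of all genes). Cpt1b measured 190.2 and 178 FPKM in BKC50 against 211 and 195 in vehicle. Values of other members overlapped those of vehicle, such as Hadha (315 and 303 FPKM in BKC50) and Plin2 (60.9 and 65.7). Ppargc1a (14.7 and 18.6) and Ppard (2.65 and 2.62) overlapped as well. The fold of BKC50 over vehicle lay on the same side of 1 in both styles for 17 members, whereas the fold of the second over the first style lay on the same side in both doses for 32. These counts were not made over all genes. Over 11936 genes, replicate differences, which follow naming style here, correlated at 0.745 between vehicle and BKC50 hearts. With naming style as a term, again 0 members were called.

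The lone heart BKC100 library was low for nearly the whole family. Its level was below both vehicle hearts for 29 of 36 members, against 37.3% of all genes, and the members' median log2 change was -1.13, against 0.00 over all genes tested. The 36 genes summed to 5309 FPKM in it. Acadm, at 84.8 FPKM against 538 and 576, was the only member called (log2 change -2.70, SE 0.25, adjusted p = 0.0394, limma with the spread taken from the other heart groups; 0.81% of genes were called and 0.298% were lower). Acads measured 25.0 against 242 and 146, Acaa2 101 against 521 and 474, Echs1 78.0 against 442 and 308, and Lpl 144 against 732 and 687 FPKM. None of these 4 passed, with adjusted p from 0.0527 (Lpl) to 0.0934 (Echs1). Fabp3 measured 2664 FPKM, Cpt1b 138, Hadha 182, Cd36 98.8, Plin2 48.1, Plin5 8.54, Ppara 7.58 and Ppargc1a 12.7, all under both vehicle values. Cpt1a at 19.5 and Decr1 at 139.9 lay between the vehicle hearts, as did Ppard at 2.64. Ucp2, at 41.8 FPKM against 33.9 and 21.2, was the only member above both.

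This library has the second naming style, yet Ucp3 was 1.28 FPKM in it, against 16.0 and 17.8 in the other hearts of that style, while Angptl4 (10.8) and Gpihbp1 (12.1) were near them. Pdk4 was 71.8 FPKM, between the styles. The general cardiomyocyte markers summed to 14978 FPKM in it and to 19886 to 28894 in the other hearts, all 6 ventricular markers were lowest in it and 9 of 10 atrial markers highest. The dose, the atrial marker profile and the lone library cannot be told apart. All 18 tricarboxylic acid cycle genes had negative log2 changes in the same library, with a median of -1.05, and none was called. Pdp2, which encodes a phosphatase that reactivates pyruvate dehydrogenase, was the only other pathway gene called (4.43 against 22.3 and 19.5 FPKM, log2 change -2.01). With naming style as a term 31 members were called, 30 of them lower, while 29.3% of all genes were called and 14.3% were higher. The replicate number as a block could not stand in for naming style here. This library is replicate 1 but has the second style, which in the other hearts goes with replicate 2. The block therefore set it beside the first-style hearts and mixed style with the BKC100 difference. With all 6 deposited heart columns 0 members and 0 of all genes were called.

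In the adrenal gland at 100 µg, Cpt1a and Ppard rose, and Echs1, Acads, Plin2 and Plin5 fell. These were 6 of 34 members tested, against 9.78% of all 12578 genes (1.8% higher and 7.98% lower), and Fabp3 and Ppargc1a did not reach the mean of 1 FPKM needed for a test. Cpt1a measured 44.9 and 41.9 FPKM in vehicle, 60.5 and 61.3 in BKC50 and 76.9 and 134 in BKC100 (BKC100 against vehicle, log2 change 1.21, SE 0.25, adjusted p = 0.0158, limma, n = 2 per group). The 3 groups did not overlap and followed the dose, but only BKC100 against vehicle was called. Ppard measured 1.02 and 2.09 in vehicle, 4.90 and 3.99 in BKC50 and 7.97 and 4.48 in BKC100 (log2 change 1.49, SE 0.34, adjusted p = 0.0217), and the 2 doses overlapped. Both were called while the all-gene median log2 change was -0.28, so relative to that median they were higher by 1.49 (Cpt1a) and 1.77 (Ppard). The call of Ppard ended with median-ratio scaling (adjusted p = 0.0576), quantile normalization (0.0595), the replicate number as a block (0.0501) and no filter (0.168), and without vehicle replicate 1 (0.144) or BKC100 replicate 1 (0.104). That of Cpt1a ended with no filter (0.165), and its adjusted p without vehicle replicate 1 was 0.0460.

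The falls stand beside the all-gene median of -0.28. Echs1 measured 594 and 488 FPKM in vehicle, 468 and 515 in BKC50 and 269 and 301 in BKC100 (log2 change -0.92, SE 0.19, adjusted p = 0.0154). Acads, the short-chain dehydrogenase, measured 75.6 and 78.5, 76.4 and 60.2, and 45.9 and 47.0 (log2 change -0.72, SE 0.20, adjusted p = 0.0427). For both enzymes BKC100 lay below all other adrenal libraries. Of the droplet coat genes, neither of which was called at 50 µg, Plin2 measured 233 and 287 FPKM in vehicle, 148 and 144 in BKC50 and 144 and 178 in BKC100 (BKC100 against vehicle, log2 change -0.69, SE 0.20, adjusted p = 0.0459). Plin5 measured 5.20 and 4.21, 2.14 and 2.70, and 1.43 and 1.76 (log2 change -1.13, SE 0.29, adjusted p = 0.0320). None of the 4 falls passed under any of the 3 scalings, and all 4 kept their sign. Without vehicle replicate 1 the log2 changes of these 4 ran from -1.01 (Plin5) to -0.75 (Acads). The calls rest on 2 libraries per group.

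Other members had higher or lower values without passing. Groups did not overlap in 11 higher members and 8 lower members of 34 (13.5% higher and 47.5% lower over all genes). Hadha measured 234 and 255 FPKM in vehicle, 233 and 228 in BKC50 and 319 and 318 in BKC100, and Ucp2 21.5 and 34.1, 40.1 and 31.1, and 41.2 and 64.4. Acadm measured 222 and 253, 189 and 246, and 199 and 196. Cpt1b measured 9.54 and 15.6 FPKM in BKC50 and 9.96 and 13.7 in BKC100, Ppara 0.653 and 1.28, and 0.651 and 2.33, and Ppargc1a 0.111 and 0.262, and 0.292 and 0.399. None of these 3 was called, and Ppargc1a was too low to test. Of the 2 BKC100 libraries, replicate 2 was the higher adrenal library for a block of uptake and PPAR target genes: Pdk4 measured 1.65 and 15.1 FPKM in BKC100 (1.501 and 2.99 in vehicle, 0.881 and 1.24 in BKC50), and Angptl4 7.22 and 35.8 (12.4 and 17.0, 20.6 and 14.0). Cd36 measured 16.0 and 32.3 (18.1 and 13.5, 5.95 and 12.7), Lpl 32.2 and 71.8 (28.2 to 34.7 in the other groups), and Fabp3 0.276 and 2.82 (at most 0.0663 in the other groups). Ucp3 measured 2.08 and 4.65, against 1.69 to 2.57 in the other groups. None of the 5 tested among these 6 genes was called, and Fabp3 was too low to test. The same library held the highest value of 19 of the 36 members, a count not made over all genes. Its adipocyte markers summed to 851 FPKM, against 229 to 457 in the other 5 adrenal glands, and the 4 defining markers to 116, against 20.6 to 53.5, with none at 0. The list of adipocyte markers includes Lpl and Cd36. Its part in the result was not tested. Without that library the log2 change of Cpt1a was 0.81, with the remaining BKC100 library assumed to vary like the other groups.

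At 50 µg, 0 of 34 members were called in the adrenal gland, against 0.0318% of all genes (limma). An unadjusted p under 0.05 was found for 5 members, against 11.3% of all genes. The largest changes were those of Ppard (log2 change 1.12, SE 0.34, adjusted p = 0.245) and Cpt1a (0.48, SE 0.25), and the smallest those of Plin2 (-0.82, SE 0.20, adjusted p = 0.162) and Cd36 (-0.77, SE 0.42). Ppard and Cpt1a were the only members with both BKC50 values above both vehicle values (16.5% of all genes), and 15 members had both below (29.6% of all genes). All 11 beta-oxidation enzyme genes had negative log2 changes, with a median of -0.14, against -0.10 over all genes. The comparisons of the doses with vehicle share the vehicle libraries. Between the doses, Decr1 (162 and 166 FPKM in BKC50, 298 and 319 in BKC100, log2 change 0.90, SE 0.18, adjusted p = 0.0249) and Acadl (37.3 and 48.0 against 71.2 and 98.4, 0.97, SE 0.23, adjusted p = 0.0429) were higher at 100 µg, and Echs1 was lower (-0.79, SE 0.19, adjusted p = 0.0466). These were 3 of 34 members, against 2.96% of all genes (0.62% higher and 2.34% lower). Vehicle adrenal glands lay between the doses for Decr1, at 238 and 211 FPKM. With a library left out, the log2 change between doses ran from 0.74 to 1.20 for Acadl and 0.85 to 0.95 for Decr1. For Echs1 it ran from -0.87 to -0.70. These calls also rest on 2 libraries per group.

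The BKC100 adrenal glands differed from the rest in naming style as well as dose, and these cannot be told apart. Rn7sl1, a signal recognition particle RNA, took 10.3% and 9.50% of summed FPKM in the BKC100 adrenal glands and 27.0% to 35.9% in the other 4. In protein-coding FPKM, the 36 genes made up 0.771% to 1.09% of the total in the 6 adrenal glands. Of 63 other pathway genes tested, 2 fell and 0 rose at 100 µg against vehicle: Plin3, a further droplet coat gene (66.8 and 65.5 against 20.2 and 28.1 FPKM, log2 change -1.43, adjusted p = 0.00464), and Oxct1, which encodes the enzyme that uses ketone bodies (85.6 and 82.7 against 30.1 and 43.6, -1.19, adjusted p = 0.0128).

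**Figure D4:**
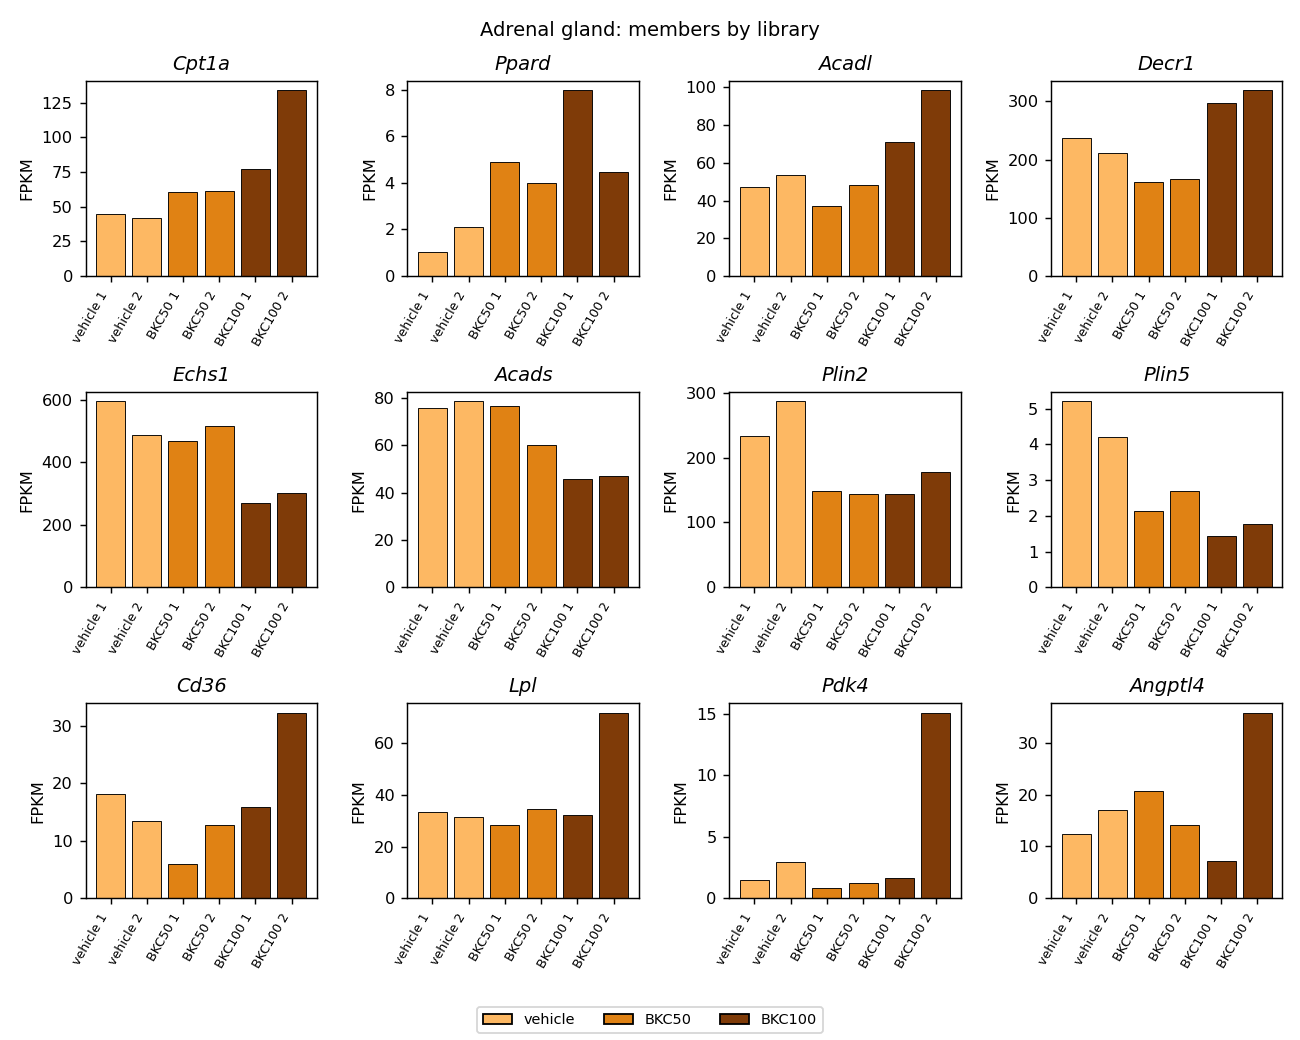
FPKM of 12 members in the 6 adrenal gland libraries, 1 bar per library with no error bar, darker with dose. Cpt1a runs from 41.9 in vehicle to 134 in BKC100, Plin2 and Plin5 are lower in all 4 BKC bars than in vehicle, Echs1 and Acads are lowest in the BKC100 bars, and Pdk4, Lpl, Cd36 and Angptl4 stand out in BKC100 replicate 2 alone.

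In the pancreas the family was little expressed: 28 of 36 members reached the mean of 1 FPKM, and Fabp3, Cpt1b, Acot1, Ucp3, Plin2, Plin5, Ppara and Ppargc1a did not. At 100 µg 0 members were called, against 0.392% of 5610 genes (limma), and 1 had an unadjusted p under 0.05, against 2.21% of all genes. The largest log2 changes were those of Ehhadh (5.25 and 3.08 FPKM in vehicle, 7.35 and 6.76 in BKC100, 0.67, SE 0.34) and Pdk4 (3.54 and 4.05 against 8.37 and 4.45, 0.58, SE 0.34), and the smallest those of Etfdh (12.3 and 8.07 against 8.90 and 6.13, -0.39, SE 0.36) and Acsl1 (5.17 and 4.08 against 3.43 and 3.31, -0.36, SE 0.33). The groups did not overlap for Ehhadh and Pdk4, which were higher in BKC100 (2 of 28 members, against 5.06% of all genes), and for Acsl1 and Ppard, which were lower (2 of 28, against 11% of all genes). Cpt1a, at 9.59 and 5.05 in vehicle and 9.61 and 6.82 in BKC100, overlapped, as did Hadha (7.98 and 5.16, 7.18 and 5.97), Angptl4 (3.34 and 3.09, 3.11 and 4.33) and Cd36 (1.59 and 1.17, 1.30 and 1.23). In BKC100, Acadm measured 6.29 and 5.61 FPKM and Ucp2 1.47 and 0.962, against 9.63 and 5.36, and 1.17 and 0.658, in vehicle. The untested Cpt1b (0.175 and 0.164), Plin2 (0.778 and 0.730), Plin5 (0.0638 and 0.0678), Ppara (0.868 and 1.05) and Ppargc1a (0.263 and 0.261) all stayed near or under 1 FPKM. The vehicle replicate 1 pancreas had the highest value of 9 of the 11 beta-oxidation enzyme genes, a count not made over all genes. Its protein-coding genes also had the highest sum, 479952 FPKM against 331780 to 375087 in the other pancreases.

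The effects were also compared between organs in fits with an interaction term. The BKC50 effect differed between adrenal gland and heart in 0 of 36 members and 0% of all genes (limma). An unadjusted p under 0.05 was found for 3 members, against 5.88% of all genes. For the BKC100 effect in adrenal gland against that in pancreas, 1 of 34 members was called, Ppard (difference of log2 changes 1.73, SE 0.39, adjusted p = 0.0257), against 2.22% of genes (0.865% higher in adrenal gland). In the pancreas Ppard measured 1.57 and 1.55 FPKM in vehicle and 0.897 and 1.48 in BKC100. This call ended under all 3 scalings, with the replicate number as a block, without robust shrinkage and with no filter. It also ended without adrenal gland vehicle replicate 1 and without either pancreas vehicle library or pancreas BKC100 replicate 1, and the adjusted p over these alternatives ran from 0.0579 to 0.273. The adrenal gland groups of this fit differed in naming style as well as dose, and the pancreas groups did not. Dose and style therefore cannot be told apart in the adrenal gland against pancreas comparison. No heart comparison of this kind at 100 µg had a replicate in the treated group.

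**Figure D5:**
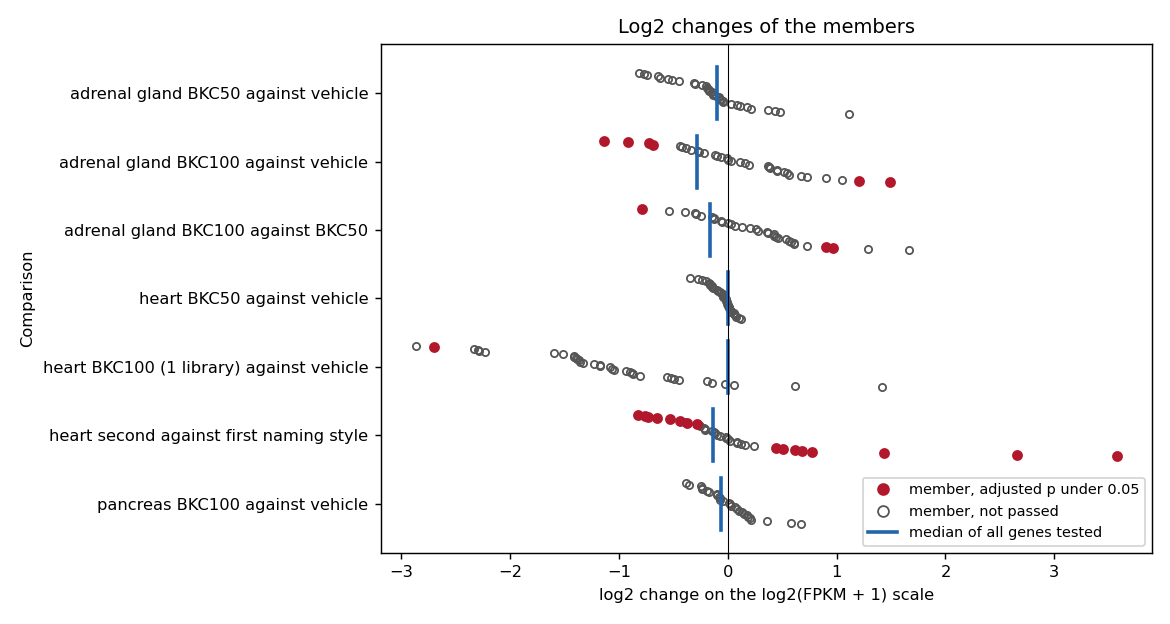
Log2 changes of the members, on the log2(FPKM + 1) scale, in 7 comparisons within an organ. Filled red points passed an adjusted p under 0.05, open points did not, and the blue line is the median of all genes tested. The 16 filled points of the naming-style comparison reach 3.58 (Angptl4), the 6 of adrenal gland BKC100 lie on both sides of 0, and most points of the lone heart BKC100 library lie left of the line.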

How the data were processed

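The deposited tables hold 1 value per gene symbol and library. The unit was not stated; it was read as FPKM, since the values deposited by the authors are not whole numbers and their sums differ between libraries. HISAT2 2.1.0, StringTie 2.1.3b and edgeR 3.40.2 are named, without roles, per the submitters' processing notes, and the genome build is not given in the sources used here. Stranded mRNA libraries were made, per the labels' protocols. No counting error can be given, because depth is unknown.

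Each organ was fitted over its whole table with limma 3.58.1 (R 4.3.3) on log2(FPKM + 1), with a mean-variance trend and robust shrinkage, over genes whose mean reached 1 FPKM; Python 3.11.15 made summaries and figures. The threshold for a call was 0.05 after Benjamini-Hochberg adjustment, and only called genes are said to have risen or fallen. Fold changes on this scale understate changes of low genes. The organ and interaction comparisons were separate fits. The members, gene lists, tests and marker lists were chosen with earlier results of these data known. Values are given in every library of a comparison within an organ for members called in it, for the 2 largest and smallest changes within an organ and for a fixed set of 15 members; other members are given by their vehicle values, means, ranges or counts. Replicate numbers pair samples by label number only: replicate differences correlated at 0.745 between heart groups, where they follow naming style, at 0.423 in pancreas and from -0.145 to 0.143 in adrenal gland. The adrenal gland fit was also run on simulated libraries with a fixed spread and no naming-style effect. That simulation cannot show how the fit behaves where dose and style coincide.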

Additional observations from a re-analysis of the deposited data

Results flagged for a closer look

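The effect of 100 µg BKC on Ppard differed between adrenal gland and pancreas by 1.73 on the log2 scale in an interaction term (SE 0.39, adjusted p = 0.0257, limma, 2 libraries per group). Ppard was higher in both BKC100 adrenal glands than in both vehicle adrenal glands, and both BKC100 pancreases were below both vehicle pancreases. The call of Ppard ended under each of the scalings and without the filter on low values. Adrenal gland BKC100 and vehicle libraries also differed in naming style, whereas the pancreas groups shared it. Dose and style therefore cannot be told apart in this difference. No other member was called in either interaction. Groups of 2 allowed no test for outlying libraries.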

How the results depend on the processing

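The count of 0 called members was the same under each alternative run for BKC50 in adrenal gland and heart, for the pancreas and for the BKC50 interaction, and the 3 organ counts stayed within 1.5 times (19 to 35 with a library left out). For adrenal gland BKC100 against vehicle, 6 members became 0 without the filter, 2 with the replicate number as a block, 3 with median-ratio scaling, 1 with quantile normalization, 3 at a fold change of at least 2, and 1 to 7 with a library left out. For BKC100 against BKC50, 3 became 0 without the filter, with the block, with median-ratio scaling or at a fold of at least 2. It became 1 with quantile normalization or without robust shrinkage. Over the settings that left no library out, 0 to 512 of all genes were called. For the lone heart BKC100 library, 1 became 2 without the filter or without robust shrinkage, 4 with only the groups compared, 5 with protein-coding genes at equal sums, 6 with median-ratio scaling or quantile normalization, 32 with the replicate block (44.0% of all genes called), 31 with naming style as a term (29.3%), 0 with all 6 columns (0 of all genes), and 2 to 4 with a library left out. For naming style, 16 (35.3% of all genes) became 0 without the filter (0%) and 3 at a fold of at least 2 (2.57%). The BKC100 interaction went from 1 to 0 without the filter, with the block, under the 3 scalings and without robust shrinkage. Its settings that left no library out called 0 to 257 of all genes. The causes were not tested.

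Signs changed for Cpt2 between naming styles (0.0300 with quantile normalization, 0.0511 with protein-coding genes at equal sums). For heart against pancreas, log2 changes with median-ratio scaling and quantile normalization were -1.35 and -1.48 (Acaa1a), -1.52 and -1.65 (Ppard), -1.38 and -1.50 (Cpt1a) and -0.39 and -0.56 (Decr1). For adrenal gland against pancreas they were -0.33 and -0.35 (Acaa1a), -1.96 and -2.02 (Lpl), -0.34 and -0.38 (Acadl), -0.62 and -0.71 (Acsl1), -1.53 and -1.60 (Ppara), -0.89 and -0.92 (Cpt1a), -1.06 and -1.18 (Mlycd), -0.46 and -0.0451 (Decr1) and -0.94 and -0.92 (Etfb), and -0.0444 for Cd36 with median-ratio scaling. Naming style as a term in the dose fits was chosen after seeing the data. No library could be left out of the style fit, and the fit of only the groups compared equals the one used for pancreas, style and interactions. Groups of 2, unknown depth and 1 heart BKC100 library limit what can be detected.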
